A study of Mus musculus with 6 samples.

Results

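Nuclear genes for the protein factors that run translation inside mitochondria were followed through liver tumors of WT and Top1mt-KO mice. They were chosen by symbol as the initiation factors Mtif2 and Mtif3, the elongation factors Tufm, Tsfm and Gfm1, the release factors Mtrf1 and Mtrf1l, the recycling factors Mrrf and Gfm2, and the translational activator Taco1. All 10 were found among the 30236 rows of the deposited table, and all 10 were among the 22677 genes tested. The 6 libraries came from 3 WT tumors and 3 tumors of genotype Top1mt -/-, here called KO. The mice were C57BL/6 males, littermates bred from heterozygous parents. Both genotypes received diethylnitrosamine, a liver carcinogen, on day 14 after birth, and then carbon tetrachloride, a hepatotoxin, 2 times a week for 14 weeks from the age of 8 weeks. Tumors were taken at 22 weeks, and no untreated liver is compared here. RNA came from whole tumor tissue of matched size, so each value mixes tumor cells with the other cells of the tumor. The labels do not say which tumors shared a litter or a mouse, so p-values measure the spread between these tumors.

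Mitochondria make a small set of respiratory chain proteins on their own ribosomes, from mRNAs encoded by mitochondrial DNA. The ribosomal proteins and the factors are encoded in the nucleus and imported. Mitochondrial IF2 brings the formylated initiator tRNA to the small subunit, IF3 keeps the subunits apart before initiation, EF-Tu delivers aminoacyl-tRNAs, EF-Ts recharges EF-Tu with GTP, and EF-G1 moves the ribosome along the mRNA. Release factors free the finished chain, and the recycling factor and EF-G2 then split the ribosome. TOP1MT is the mitochondrial type IB topoisomerase, and the study asked how mitochondrial translation and tumor growth depend on it.

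Promoter sequence was a feature that the choice of genes did not use. RefSeq windows on GRCm38.p6, from 250 bases before to 50 bases after a start base listed for the gene, matched 9 of the 10 factors, all but Mtif3. The motif CCGGAAG, the core bound by ETS family factors such as GABPA, was searched on both strands and occurred in 3 of these 9, Tufm, Gfm1 and Mtif2, against 8.86% of all 32851 windows of that length. That share was not matched for GC content. In the 250 bases before the start, GC was 60.4% for Tufm, 49.2% for Gfm1 and 60.0% for Mtif2. The median over all windows was 52.4%. The matches are shown because of the levels of these 3 genes, given further on. The 3 were the highest 3 of the 10 per kilobase of merged exons. Per kilobase of the principal transcript they were 3 of the highest 4, with Gfm2, which has no match, in place 2. A link between the motif and the level was not tested. The 30-base stretches around each match are given with the motif in capitals. Positions are counted from the start base of the promoter table, which can differ from the gene starts given with the genes further on, for Mtif2 and Tufm among them. It can also differ from where the RefSeq gene begins, which is chr11:29525352 for Mtif2 and chr7:126487271 for Tufm. Tufm carries it at -2 to 4, with the start base as 0, within chr7:126487342-126487371 on the plus strand. Gfm1 carries it at -1 to 5, within chr3:67430103-67430132 on the plus strand. Mtif2 carries it at 1 to 7, within chr11:29526387-29526416 on the plus strand, and again on the other strand, as CTTCCGG, at -11 to -5, within chr11:29526375-29526404.
Tufm: cctcatttccgCCGGAAGtgatctgcagtc
Gfm1: tgaccttcctcCCGGAAGtgctcctgcggc
Mtif2, first match: ttccggcggtaCCGGAAGcacgacggggac
Mtif2, other strand: tggggaagctgCTTCCGGcggtaccggaag

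The other 6 matched factors held no such match. The Sp1 core GGGCGG occurred in 5 of the 9 windows, those of Tsfm, Gfm2, Mtrf1l, Mrrf and Taco1, against 35.7% of all windows. The letters CATGCGC of the NRF1 motif, ATGGCGG of YY1, the E box CACGTG and the cyclic AMP element TGACGTCA occurred in 0 of the 9, against 3.91%, 4.06%, 7.15% and 1.79% of all windows. Both strands were searched for each, and matches of different motifs were counted separately and may share bases. These shares of all windows were not matched for GC content either. The motifs were chosen after these windows had been read, and a match is a description of the letters.

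Values are the authors' log2 expression per gene, normalized between libraries and not divided by gene length. The transform is not named and was not tested. It may be a regularized log, which draws low values together and so understates differences of weakly expressed genes. Read depth is unknown. Values of a group are listed in the order of replicates 1, 2 and 3. Top1mt itself read 7.71, 5.99 and 8.01 in the WT tumors against 5.58, 6.41 and 6.32 in the KO tumors. For the targeted gene the library labelled WT replicate 2 went against its label, with a value inside the KO range. KO replicate 1 stood apart through Gm42418, at 22.0. WT replicate 3 came next at 15.8, above the 11.7 to 12.7 of the remaining libraries. Results below are given with and without WT replicate 2 and KO replicate 1 where that matters. WT replicate 3 was left out only in the turn of single libraries. The 7 hepatocyte markers measured had a summed level of 20.8 to 21.5 in WT and 21.1 to 21.6 in KO on the log2 scale, and the liver tumor marker Gpc3, the lower of the 2 tumor markers, averaged 10.5. Summed levels of the bile duct, macrophage, endothelial, stellate cell, lymphocyte, proliferation and tumor markers overlapped between the groups. Taken singly, 2 of the 5 endothelial markers and 1 of the 7 hepatocyte markers were higher in each KO library than in any WT library, and 2 of the 5 bile duct markers and 1 of the 6 lymphocyte markers were lower. The 3 erythrocyte markers were lower in KO, at 11.02 to 11.5 against 11.6 to 12.5 in WT, with 1 of the 3 not overlapping by itself.

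Both initiation factors were higher in each KO library than in any WT library, by small amounts, and the other 8 overlapped between the genotypes. None of the 10 passed the test, but the targeted gene Top1mt did not pass it either. The number of genes past an adjusted p of 0.05 in limma (Benjamini-Hochberg) was 0 of 22677, a background of 0%. An unadjusted p under 0.05 was found for 985 genes, and the smallest adjusted p of a factor by limma was 0.999. The paper used DESeq2 on counts and did report differentially expressed genes between these genotypes. That test could not be repeated on the log2 values. Without adjustment 0 of the 10 had a p under 0.05 as well, while 1.79% of all genes tested were higher and 2.56% lower in KO at this level. The groups did not overlap, with KO higher, in 2 of the 10, against 3.95% of all genes tested. With KO lower they did not overlap in 0 of the 10, against 4.33%. In whole tumors a change in the share of a cell type and a change in RNA per cell cannot be told apart. The median log2 fold change of the 10 was -0.02, and that of all genes tested was also -0.02, with 3 factors higher and 7 lower in KO. Of the 7, Gfm2, Mtrf1 and Mrrf, all with small values, turned higher when each library was centred on its median, which moved the median of all genes to 0.04.

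**Figure D1:**
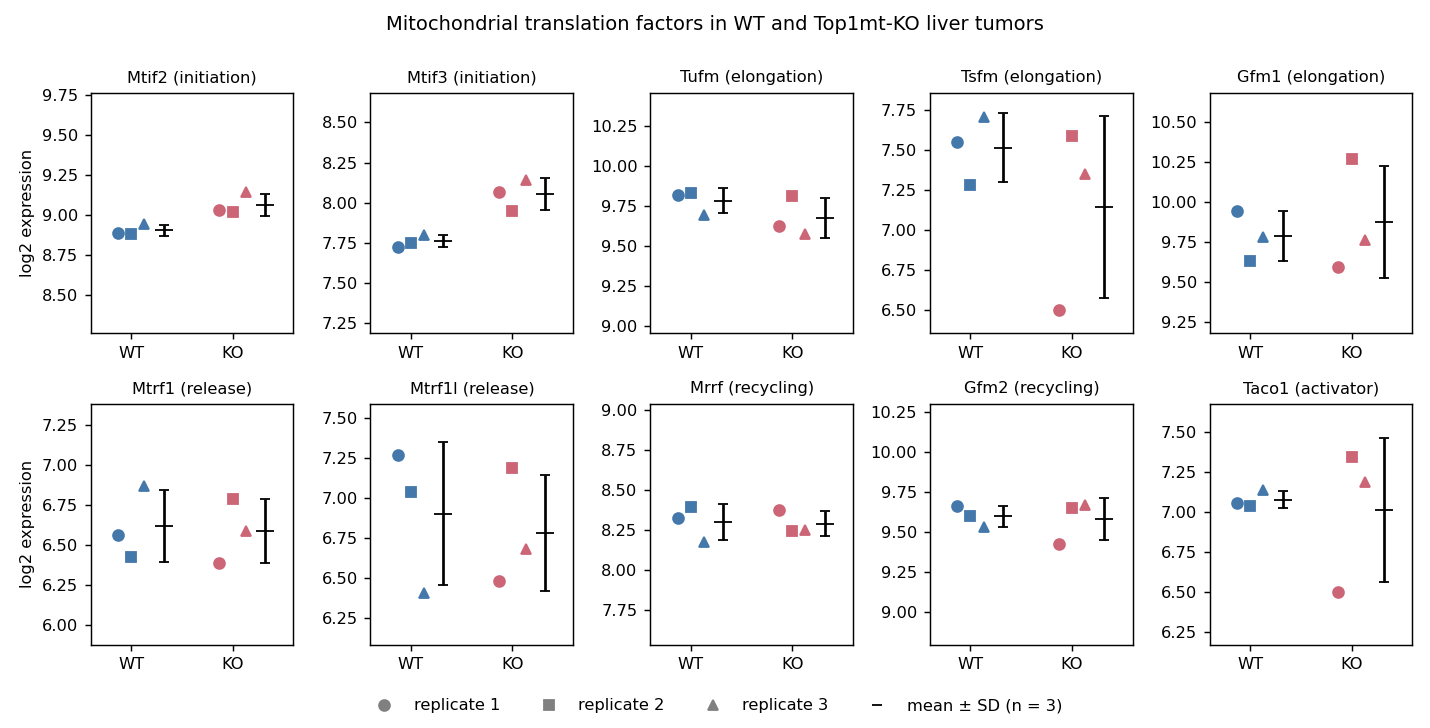
Log2 expression of each factor in every library, one panel per gene with its role in brackets; the vertical axes all span the same number of log2 units, symbols mark the replicate number, and bars give the mean ± SD (n = 3). Mtif2 and Mtif3 are the panels in which all KO points lie above all WT points, and KO replicate 1 is the low point for Tsfm and Taco1.

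Mtif3, which encodes initiation factor IF3, had the clearer separation of the genotypes. It read 7.72, 7.75 and 7.80 in the WT tumors against 8.06, 7.95 and 8.14 in the KO tumors. Every KO library was above every WT library. The WT mean was 7.76 ± 0.04 (SD, n = 3) and the KO mean 8.05 ± 0.10 (SD, n = 3). Their log2 difference of 0.29 had a standard error of 0.15 and a 95% interval of -0.04 to 0.63. This is 1.23 times the WT level. The adjusted p by limma was 0.999 and the unadjusted p by limma 0.0785, while the exact two-sided permutation test gave p = 0.1, the smallest that 3 against 3 allow. The spread within groups was small, with a pooled SD of 0.07 against a median of 0.25 for 2442 genes of like level, those within 0.5 log2 units of its mean. Among these genes 18.7% had an absolute fold change at least as large. With each library left out in turn the log2 fold changes ran from 0.25 to 0.35. Groups that do not overlap cannot change direction in this way. The log2 fold change was 0.29 without WT replicate 2 and also 0.29 without KO replicate 1.

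Part of Mtif3 is shared with a neighbour. On GRCm38 the gene lies on the minus strand at chr5:146951573-146963800, and 1505 bases of its merged exons, 29.4% of them, also belong to exons of Gtf3a on the opposite strand. Gtf3a encodes transcription factor IIIA. The library kit keeps the strand, but whether the counting used it is not stated, so reads from the shared bases cannot be assigned with certainty. Gtf3a read 5.88, 6.33 and 4.51 in the WT tumors against 6.53, 5.63 and 5.46 in the KO tumors, with groups that overlapped and a log2 fold change of 0.30, in the same direction as Mtif3 and of like size. The part of shared reads in the Mtif3 value was not tested.

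Mtif2, the gene for initiation factor IF2, differed in the same direction and by less. It lies on the plus strand at chr11:29526408-29545279. It read 8.89, 8.88 and 8.94 in the WT tumors against 9.03, 9.02 and 9.14 in the KO tumors, again with no overlap. Its log2 fold change, 0.16, had a standard error of 0.12 and a 95% interval of -0.13 to 0.44 (limma's adjusted p = 0.999). An increase of 1.36 times the WT level lies at the upper end of this interval. By the exact two-sided permutation test p was again 0.1. The pooled SD of 0.05 was the smallest of the 10 factors. A spread as small was found in 0.635% of all genes tested and in 1.21% of 2316 genes of like level. Among the genes of like level 34.8% had an absolute fold change at least as large. Leaving out a library moved the log2 fold change between 0.12 and 0.18. As for Mtif3, leaving out a library cannot make such groups overlap or change direction. The summed erythrocyte markers were lower in the same 3 KO libraries, and 2 of the 5 endothelial markers were higher. Their part in the difference of either gene was not tested.

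The ratio of the initiation factors to each other shifted with these differences. Within a library, which removes any scale factor of that library, Mtif2 exceeded Mtif3 by 1.16, 1.13 and 1.15 log2 units in the WT tumors against 0.97, 1.07 and 1.0 in the KO tumors. All 3 KO values lay below all WT values. The difference was -0.14, and 0.1 was again the p of the exact two-sided permutation test. It uses the same values as the comparisons of the single genes and is not a separate observation.

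**Figure D2:**
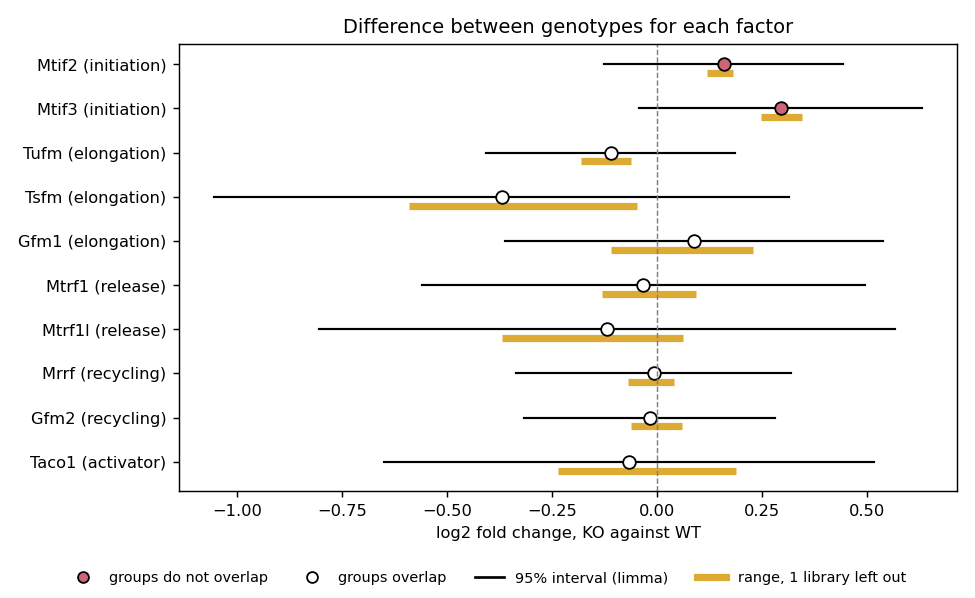
Log2 fold change of each factor in KO against WT tumors (points) with 95% intervals from limma (black) and, below each, the range of the fold change when 1 library is left out (yellow). Every interval includes 0; filled points mark Mtif2 (0.16) and Mtif3 (0.29), whose groups do not overlap, and the yellow range of Tsfm reaches from -0.59 to -0.05.

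The elongation factors overlapped between genotypes. On GRCm38 their genes lie at chr7:126487361-126490731 on the plus strand (Tufm), chr10:127011572-127030840 on the minus strand (Tsfm) and chr3:67430096-67476529 on the plus strand (Gfm1). Tufm, the gene for EF-Tu, read 9.82, 9.83 and 9.70 in the WT tumors against 9.63, 9.81 and 9.58 in the KO tumors. KO replicate 2 lay within the WT range and the other KO libraries lay below it. The log2 fold change was -0.11, with a 95% interval of -0.41 to 0.19 (limma's adjusted p = 0.999). It stayed below 0 under all 13 alternatives, though the trend, filter and block settings cannot move a fold change. It was -0.18 without KO replicate 2, -0.06 without KO replicate 3 and also -0.06 with centring on library medians. Tufm has a near-identical copy, Gm9755, whose transcript matches 1356 bases at 99.9% identity. Gm9755 was listed at 3.16 to 4.58 over the 6 libraries, and since the authors kept uniquely mapped reads, reads from the shared bases can be missing from Tufm to an unknown extent.

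Tsfm, the gene for EF-Ts, had the largest fold change of the 10, and most of it was lost without KO replicate 1. It read 7.55, 7.28 and 7.71 in the WT tumors against 6.50, 7.58 and 7.34 in the KO tumors. KO replicates 2 and 3 lay within the range of the WT libraries, and KO replicate 1 lay far below it. The WT mean was 7.51 ± 0.22 (SD, n = 3) and the KO mean 7.14 ± 0.57 (SD, n = 3), which differ by -0.37 with a standard error of 0.30 (limma's adjusted p = 0.999). Without KO replicate 1 it was -0.05, and without KO replicate 2 it was -0.59. The ratio of Tufm to its exchange factor was accordingly 3.13 log2 units in KO replicate 1 and 1.99 to 2.55 in the other 5 libraries, and the genotypes did not differ beyond that spread (exact two-sided permutation test, p = 0.7).

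Gfm1, which encodes the translocase EF-G1, read 9.95, 9.63 and 9.78 in the WT tumors against 9.59, 10.3 and 9.76 in the KO tumors. Here KO replicate 2 stood highest and KO replicate 1 lowest. The log2 fold change of 0.09 had a 95% interval of -0.36 to 0.54 and turned to -0.11 without KO replicate 2. Set against Gfm2, its relative that acts in recycling, Gfm1 was higher by 0.29, 0.03 and 0.25 log2 units in WT and by 0.17, 0.62 and 0.10 in KO, with no difference beyond the spread (exact two-sided permutation test, p = 0.8).

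The release factors also overlapped. Mtrf1 lies at chr14:79397772-79423587 on the plus strand and Mtrf1l at chr10:5811887-5823910 on the minus strand. Mtrf1l, the gene for the factor that reads the standard stop codons in mitochondria, read 7.27, 7.04 and 6.41 in the WT tumors against 6.49, 7.19 and 6.68 in the KO tumors. The WT libraries held both its highest and its lowest value. The log2 fold change was -0.12 with a 95% interval of -0.80 to 0.57. Mtrf1, its paralog, read 6.56, 6.43 and 6.87 in the WT tumors against 6.39, 6.79 and 6.59 in the KO tumors, a log2 fold change of -0.03 that became 0.02 when each library was centred on its median. In WT replicate 3 Mtrf1 exceeded Mtrf1l by 0.46 log2 units, and in the other 5 libraries Mtrf1l was higher, by 0.10 to 0.71, on a scale that includes gene length. The difference of this ratio between genotypes was -0.09 (exact two-sided permutation test, p = 0.9).

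The recycling factors had the narrowest ranges over the 6 libraries, 0.22 for Mrrf and 0.24 for Gfm2. Mrrf lies at chr2:36136389-36190647 and Gfm2 at chr13:97137937-97181195, both on the plus strand. Mrrf, the ribosome recycling factor, read 8.32, 8.40 and 8.18 in the WT tumors against 8.38, 8.24 and 8.25 in the KO tumors. Gfm2, the gene for EF-G2, read 9.66, 9.60 and 9.53 in the WT tumors against 9.43, 9.65 and 9.67 in the KO tumors. Both had log2 fold changes close to 0, -0.01 and -0.02, with 95% intervals of -0.33 to 0.32 and -0.32 to 0.28. An absolute fold change at least as large as that of Mrrf was found in 97.7% of all genes tested. On the linear scale the intervals run from 0.793 to 1.25 times the WT level for Mrrf and from 0.803 to 1.22 times for Gfm2. Mrrf shares 385 exon bases with Rbm18 on the opposite strand, and Gm6374, a copy of Mrrf that matches 789 bases at 97.1% identity, was listed at -0.99 to -0.02.

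Taco1, needed for translation of the mRNA of cytochrome c oxidase subunit I, also depended on KO replicate 1. The gene lies on the plus strand at chr11:106066061-106073612. It read 7.05, 7.03 and 7.13 in the WT tumors against 6.50, 7.34 and 7.18 in the KO tumors. The other KO libraries both lay above the WT range, and KO replicate 1 lay below it. The log2 fold change was -0.07 over all 6 libraries and 0.19 without KO replicate 1, where the groups no longer overlapped (limma's adjusted p = 0.903 in that fit). Smaller groups separate more easily, and the share of all genes that do so without this library was not counted. Taco1 shares 245 exon bases, 17.7% of its own, with the antisense gene Taco1os, which read at most 2.29 in any library.

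KO replicate 1 was the low library for many of the factors. It held the lowest value of 5 of the 10 factors and the highest of 0, while KO replicate 2 held the highest of 2 and the lowest of 0. The same counts over all genes tested were not made, so these are not shown to be particular to the factors. The mean of the centred values, each gene's log2 value minus its mean over the 6 libraries, was -0.22 in KO replicate 1, 0.17 in KO replicate 2, 0.02 in KO replicate 3 and -0.03 to 0.06 in WT. The initiation factors were not low there, and their mean was 0.10 in KO replicate 1 and -0.14 to -0.07 in WT. The mitochondrial ribosomal proteins went the other way in that library. The 79 that passed the filter averaged 0.23 in KO replicate 1, their highest value, and -0.01 and -0.10 in the other KO libraries. The tRNA processing list and the synthetases without Lars2 were, like the factors, lowest in KO replicate 1, at -0.07 and -0.10, and highest in KO replicate 2, at 0.09 and 0.15. The tRNA processing list was nearly as low in WT replicate 1, at -0.06. The mitoribosome assembly list was lowest in WT replicate 1, at -0.09, and read -0.07 in KO replicate 1. Other factors at the mitoribosome averaged 0.03 and cytosolic translation factors 0.06 in KO replicate 1, so they were not low there. The 12 genes of a list for mitochondrial content, such as Cs and Tomm20, averaged -0.09 in KO replicate 1. The median of all genes tested was low there as well. It was 5.67 in KO replicate 1, 5.65 in WT replicate 2 and 5.71 to 5.83 in the other libraries. Whether this offset of the whole library, or the large share of Gm42418 in KO replicate 1, had a part in the values of the lists and factors was not tested.

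**Figure D3:**
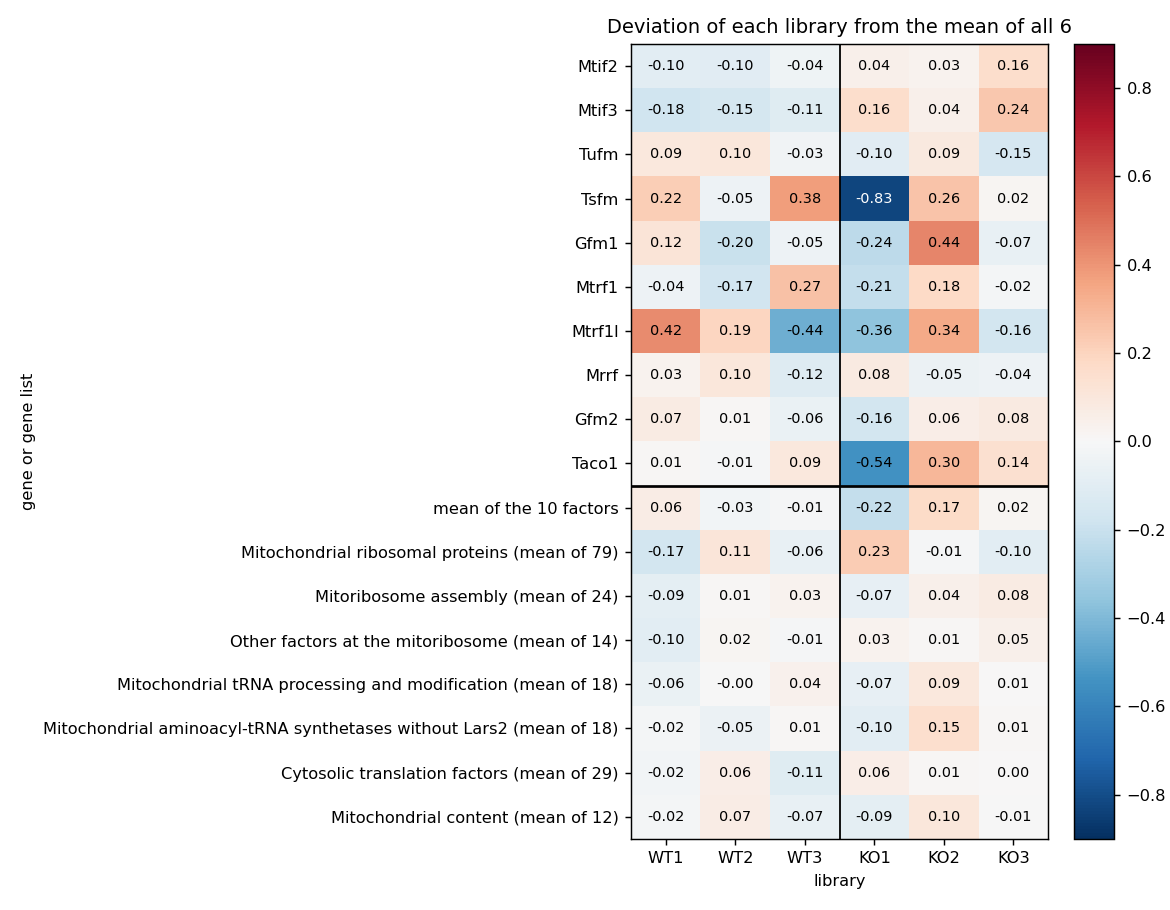
Log2 expression in each library minus the mean of the 6 libraries, for each factor (upper rows) and as the mean of each gene list (lower rows). KO replicate 1 is low for Tsfm (-0.83) and Taco1 (-0.54) and high for the ribosomal proteins (0.23), and Mtif2 and Mtif3 change sign between the WT and KO columns.

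Levels were compared between factors per kilobase of merged exons, on the log2 scale and over all 6 libraries. Tufm was highest at 8.64 ± 0.11 (SD, n = 6), followed by Gfm1 at 7.69 ± 0.25 (SD, n = 6), Mtif2 at 7.03 ± 0.10 (SD, n = 6) and Taco1 at 6.57 ± 0.29 (SD, n = 6). Between these 4 the ranges of neighbours did not overlap. The range of Taco1 overlapped with that of Gfm2. Below it Gfm2 (6.17), Mrrf (5.98), Tsfm (5.79), Mtif3 (5.55), Mtrf1 (5.33) and Mtrf1l (5.14) followed, each overlapping with the next. The lowest, Mtrf1l, stood at 8.83% of the Tufm level on the linear scale. The order depended on the length used. With the length of the principal transcript in place of merged exons, Gfm2 moved from place 5 to place 2 at 7.93 and Tsfm from place 7 to place 5 at 7.06, while Tufm stayed first at 8.98 and Mtrf1l last at 5.47.

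**Figure D4:**
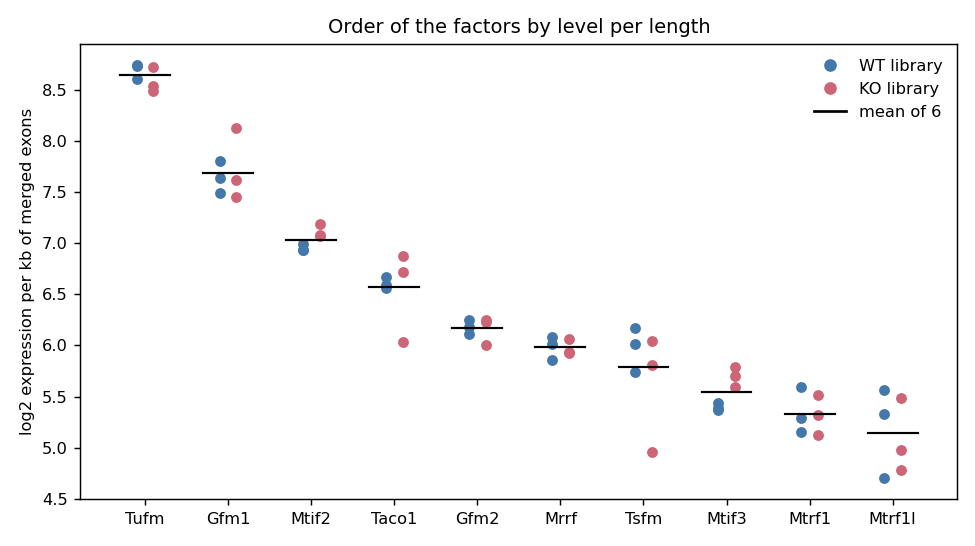
Log2 expression per kilobase of merged exons for each factor in the 3 WT and 3 KO libraries (points) with the mean of the 6 (line), in falling order. Tufm, at 8.64, stands clear of all others, and from Taco1 downward neighbouring factors overlap.

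The rest of the mitochondrial translation machinery was read from lists set beside the factors. Over all genes tested 47.7% were higher in KO, and 8.28% had groups that did not overlap in either direction. In the list of 14 other factors that act at the mitoribosome, such as Mtfmt, which formylates the initiator tRNA, 9 were higher and 5 lower in KO, and 0 had groups that did not overlap. Of 24 mitoribosome assembly factors, 13 were higher in KO and 11 lower, the median log2 fold change was 0.02, and 3 (12.5%) did not overlap. Mtg1, a GTPase of large subunit assembly, was 7.09 to 7.22 in WT and 7.40 to 7.53 in KO, a log2 fold change of 0.34. Fastkd2, an RNA-binding protein of large subunit assembly, was 7.87 to 8.14 in WT and 8.26 to 8.36 in KO, a log2 fold change of 0.29. Mettl15, a methyltransferase of the small subunit rRNA, was 5.87 to 6.28 in WT and 5.38 to 5.85 in KO, a log2 fold change of -0.47. None of these passed the test (limma's adjusted p = 0.999 for each).

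Of 18 genes for tRNA processing and modification, 10 were higher and 8 lower in KO, and 1 (5.56%, under the 8.28% of all genes) did not overlap. It was Trnt1, which adds the CCA end to tRNAs, at 8.10 to 8.19 in WT and 7.88 to 8.01 in KO. The 19 synthetases that charge mitochondrial tRNAs included 13 higher in KO and 0 without overlap. Lars2, for leucine, was 20.1 in KO replicate 1, 12.7 in WT replicate 3 and 8.44 to 9.05 in the remaining libraries. Of the 79 mitochondrial ribosomal proteins 56 were higher in KO and 23 lower, the median was 0.08, and 8 (10.1%, near the 8.28% of all genes) did not overlap. Mrps25, of the small subunit, was 7.48 to 7.87 in WT and 6.89 to 7.41 in KO, a log2 fold change of -0.52. Mrps27, of the small subunit too, was 7.09 to 7.64 in WT and 7.73 to 7.78 in KO, a log2 fold change of 0.49. Mrpl18, of the large subunit, was 8.61 to 8.77 in WT and 8.92 to 9.02 in KO, a log2 fold change of 0.31 (limma's adjusted p = 0.999 for each of the 3).

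The cytosolic translation factors gave a reference outside mitochondria. Of 29, 21 were higher in KO and 8 lower, the median log2 fold change was 0.06, and 3 (10.3%, near the 8.28% of all genes) did not overlap. Eif4a2, an RNA helicase of initiation, was 11.4 to 11.6 in WT and 11.7 in each KO library to 3 digits, and Eif2s2, a subunit of eIF2, was at most 10.30 in WT and at least 10.32 in KO. Eif4e, the cap-binding protein, went the other way, at 9.09 to 9.19 in WT and 8.84 to 9.06 in KO. The log2 fold changes were 0.20, 0.19 and -0.17. The difference between this list and the mitochondrial factors was not tested. In the mitochondrial content list 6 genes were higher and 6 lower, and the 2 without overlap, Tomm40 (-0.23) and Vdac2 (-0.18), were lower in KO, where 4.33% of all genes were lower without overlap.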

How the data were processed

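The deposited values are log2 expression by gene symbol in 6 libraries, made by the authors from total RNA with a stranded kit. The paper's methods name Trimmomatic, BWA on a genome called Mm 8, uniquely mapped reads, featureCounts and DESeq2, while the submitters' processing notes list Trimmomatic 0.36, STAR 2.5.1, Subread, DESeq2 and GRCm38. Which aligner and build made the table, and the log2 transform, could not be settled. Counts and depth cannot be recovered from these values, so no count model was run. Besides the libraries the table has 3 columns without a name, left out here.

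The test between genotypes was limma's (version 3.58.1, R 4.3.3; lmFit, eBayes with trend, Benjamini-Hochberg adjustment, threshold 0.05) on genes whose mean lay above the lowest 25%. Intervals are limma's 95% intervals. Within-library ratios were compared by exact two-sided permutation tests. The procedure was tested on simulated data. Genes named were all 10 factors, Top1mt, and from each list the up to 3 genes with the lowest unadjusted p among those without overlap. Genes that share exons or sequence with a factor, and Gm42418, were named after their values were seen. The factors and lists were chosen with earlier results of these data known. Lengths and exon overlaps came from GENCODE M21 on GRCm38, near-identical transcripts from blastn 2.17.0 (at least 300 aligned bases and 95% identity), and promoter windows from RefSeq on GRCm38.p6. Transcripts encoded by mitochondrial DNA were not analysed here. Alternatives were limma without trend, quantile normalization, centring on library medians, the replicate number as a block, no filter on low values or a filter at the median, and each library left out in turn. The joint omission of WT replicate 2 and KO replicate 1, and the second gene length, were chosen after seeing the data.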

Additional observations from a re-analysis of the deposited data

How the results depend on the processing

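Of the 10 factors, 4 (Mtif2, Mtif3, Tufm and Tsfm) kept their direction under all 13 alternatives. Limma without trend, the other filters and the replicate block leave a fold change as it is, so they could not turn a direction. For Mtif2 and Mtif3, whose groups did not overlap, leaving out libraries could not do so either. None of the 10 passed an adjusted p of 0.05 by limma under any alternative (smallest 0.879). With no filter on low values 4 genes of the whole table passed and Mtif3 had an unadjusted p under 0.05, and without 1 library from 0 to 1 gene passed, the 1 without KO replicate 1, none of them a factor. The replicate block gave 0 genes and 0 factors, and the median of the factors was -0.02, which this block cannot change. The deviations of same-numbered libraries from their group means had correlations of -0.12, -0.08 and 0.05. Such values cannot settle whether these libraries shared a litter or a batch, which the labels do not give. With 1 library left out the median of the factors ran from -0.12 to 0.06.

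Centring on library medians gave 0.037 for Gfm2, 0.023 for Mtrf1 and 0.047 for Mrrf, quantile normalization 0.012 for Mtrf1, and leaving out WT replicate 2 with KO replicate 1 gave 0.061 for Gfm2, 0.098 for Mtrf1l and 0.17 for Taco1. With 1 library left out the log2 fold changes ran from -0.11 to 0.23 for Gfm1, -0.061 to 0.060 for Gfm2, -0.13 to 0.093 for Mtrf1, -0.37 to 0.062 for Mtrf1l, -0.069 to 0.042 for Mrrf and -0.23 to 0.19 for Taco1. The difference of the ratio of Tufm to Tsfm ran from -0.040 (without KO replicate 1) to 0.41, of Gfm1 to Gfm2 from -0.058 (without KO replicate 2) to 0.20 and of Mtrf1l to Mtrf1 from -0.46 to 0.12. The cause was not tested. Libraries of unknown depth, 3 a group, limit every comparison.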
